A study of Mus musculus with 15 samples.

Results

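The genes described here belong to the renin-angiotensin-aldosterone axis and to the family of regulators of G protein signalling (Rgs). The members were 10 named genes: the receptors Agtr1a and Nr3c2, the precursor Agt, the peptidases Ace, Enpep and Lnpep, the prorenin receptor Atp6ap2, and Rgs2, Rgs4 and Rgs5. They were set by name and not by a rule on their values, but earlier results of these data were known when they were chosen. All 10 were listed in at least part of the files, and 9 of them were among the 12367 named genes listed in every file. Hearts of male C57BL/6 mice were compared in 3 groups of 5: AngII+QDG (mice given AngII together with QDG, an agent that the labels give only by this abbreviation), AngII (mice infused with AngII, angiotensin II) and Control. The labels give no allele or transgene, no age, and neither the dose nor the length of either treatment. RNA came from heart tissue, depleted of rRNA, so every value is an average over the cell types of the heart.

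Angiotensin II is made from angiotensinogen, the product of Agt, by renin and then by angiotensin-converting enzyme, the product of Ace. It acts mainly on the type 1 receptor, which in mice is encoded largely by Agtr1a and signals through Gq and related G proteins, and it drives release of aldosterone, the ligand of the mineralocorticoid receptor Nr3c2. Rgs proteins speed up GTP hydrolysis by the alpha subunits of G proteins and so shorten such signals. In rodent hearts and vessels the axis is known for raising blood pressure and for promoting hypertrophy and fibrosis.

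Values were taken as FPKM (fragments normalized to transcript length and library depth) per transcript, and summed to genes. Differences are log2 fold changes on log2(FPKM + 1), which understates changes of low genes, with p-values from limma adjusted by the Benjamini-Hochberg method over 12243 genes, called under 0.05. Low values rose in whole steps. Taken as 1 fragment each, with FPKM as the unit, these put the depth at about 51600000 to 78300000 fragments per library. The labels do not say more of how the mice were kept or handled, so p-values measure the spread between these samples. Control libraries leaned to short transcripts: the mean log2 value of protein-coding transcripts under 1000 nt minus that of those of at least 3000 nt was 0.64 to 0.89 in AngII+QDG, 0.77 to 0.96 in AngII and 0.98 to 1.40 in Control libraries, highest in Control 3 and Control 5. Zeros moved with the groups as well: 3.28 to 4.53% of named transcripts were at 0 in AngII+QDG, 3.16 to 4.77% in AngII and 4.69 to 16.47% in Control libraries, most in Control 5, where 740 named genes were at 0. Of the 13 member transcripts listed, 8 were at least 3000 nt long and 1 was under 1000 nt. Over all genes the median log2 change came to 0.20 for AngII minus Control, 0.18 for AngII+QDG minus Control and −0.017 for AngII+QDG minus AngII, and 0.077 for AngII minus Control without Control 3 and Control 5. Member changes against Control are therefore given also relative to that median. In bulk tissue, fewer cells of a type and less RNA per cell cannot be told apart.

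Across the groups, Rgs5 had by far the highest level and the receptors and peptidases were low to moderate. Ordered by the median FPKM of the 5 AngII hearts, Rgs5 (130.5) stood above Ace (13.7), Agtr1a (11.9), Rgs2 (7.65), Atp6ap2 (5.57), Rgs4 (4.48), Enpep (1.93), Nr3c2 (1.74) and Agt (0.088). In that group the libraries of neighbours in this order did not overlap between Rgs5 and Ace and between Rgs4 and Enpep, and overlapped for every other neighbouring pair. In Control hearts Rgs5 (102.6) again led, with Ace, Agtr1a and Rgs2 at 10.3, 10.1 and 10.1, and the only other gap was between Rgs2 and Atp6ap2 (3.91).

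**Figure D1:**
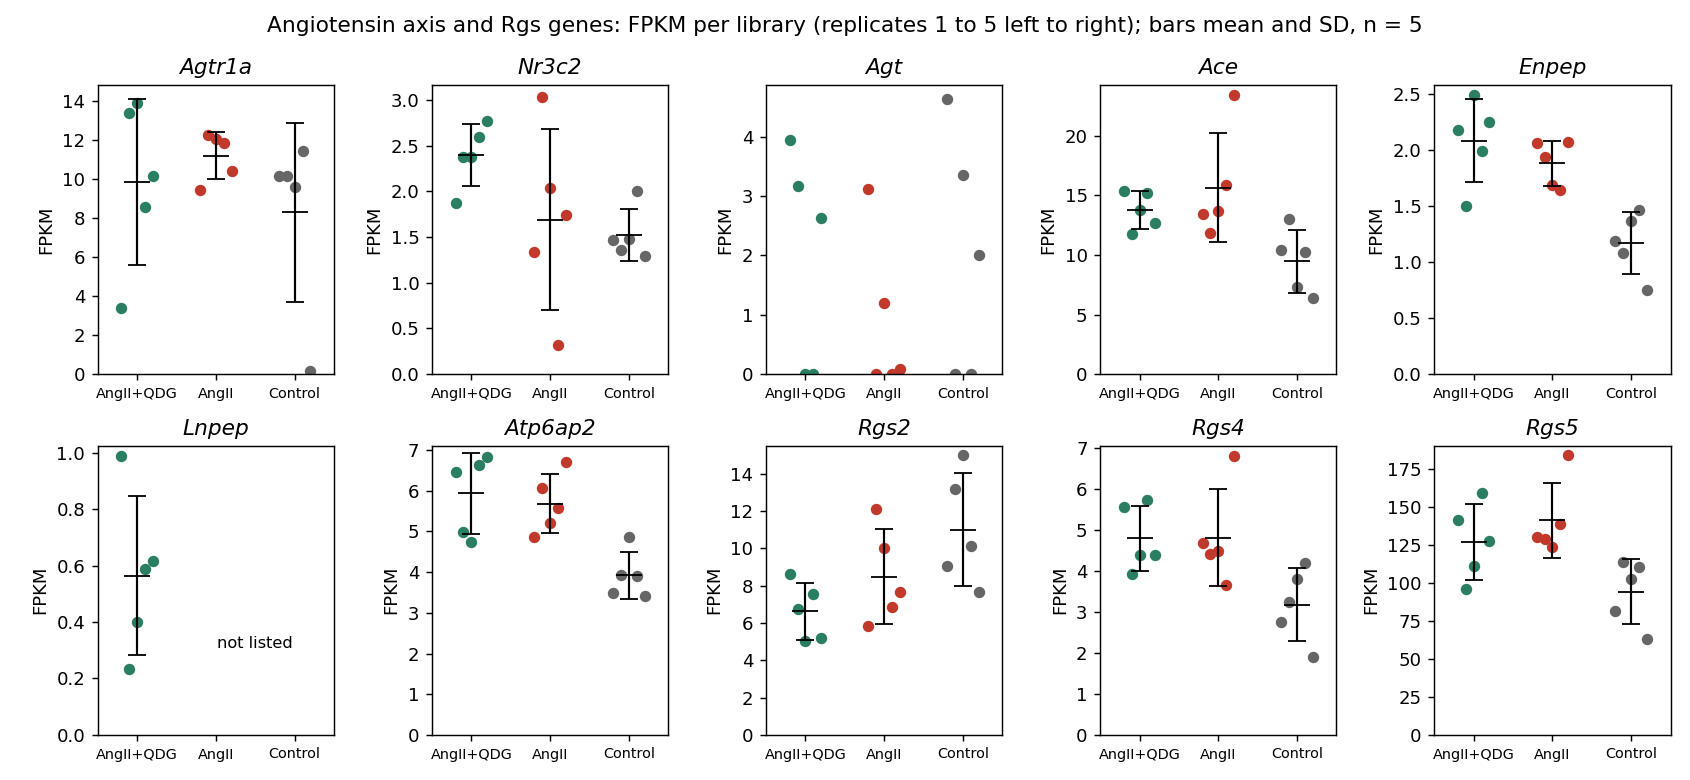
FPKM of each member (vertical axis) in every library, by group from left to right AngII+QDG, AngII and Control, with bars for the mean and SD of 5 libraries (none for Agt, which was listed at 0 in 6 libraries). Enpep, Atp6ap2 and Rgs5 had no overlap between AngII and Control libraries, and Lnpep was listed in AngII+QDG files only.

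The first comparison asked which of these genes differ in the heart after AngII infusion. Ace, Enpep, Atp6ap2 and Rgs5 were higher in AngII than in Control hearts, 4 of the 9 members tested, and none was called lower. Over all genes tested, limma called 13.4% (11.9% higher and 1.48% lower), and an unadjusted p under 0.05 was reached by 31.5%. The median log2 change of the 9 members was 0.44, against 0.20 for all 12243 genes. Agtr1a, the angiotensin II receptor, and Nr3c2, the mineralocorticoid receptor, did not pass, with standard errors of 0.55 and 0.22. Over all genes the calls were 1456 higher and 181 lower, but 405 higher and 414 lower after quantile normalization, under which Rgs5 was the only member called.

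The second comparison asked what QDG changes in AngII-infused hearts. None of the 9 members was called between AngII+QDG and AngII, and limma called 0% of all genes. At an unadjusted p under 0.05 there were 578 genes (4.72%) and 0 members, and limma voom on recovered fragments called 1 gene, which was no member. The median log2 change of the members was 0.0073, against −0.017 for all genes. A p above the threshold does not show that the levels were alike, and the standard errors of the members ranged from 0.12 for Enpep to 0.62 for Agt.

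The third comparison set AngII+QDG against Control, with the same Control libraries as the first. Enpep and Atp6ap2 were higher and Rgs2 was lower in AngII+QDG hearts, 3 of 9 members. Over all genes limma called 19.4% (16.1% higher and 3.32% lower), and an unadjusted p under 0.05 was reached by 34%. The member median was 0.48, against 0.18 for all genes. After quantile normalization the calls over all genes were 983 higher and 1002 lower, against 1970 higher and 406 lower before it, and the members called were Rgs5 (higher) and Rgs2 (lower).

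**Figure D2:**
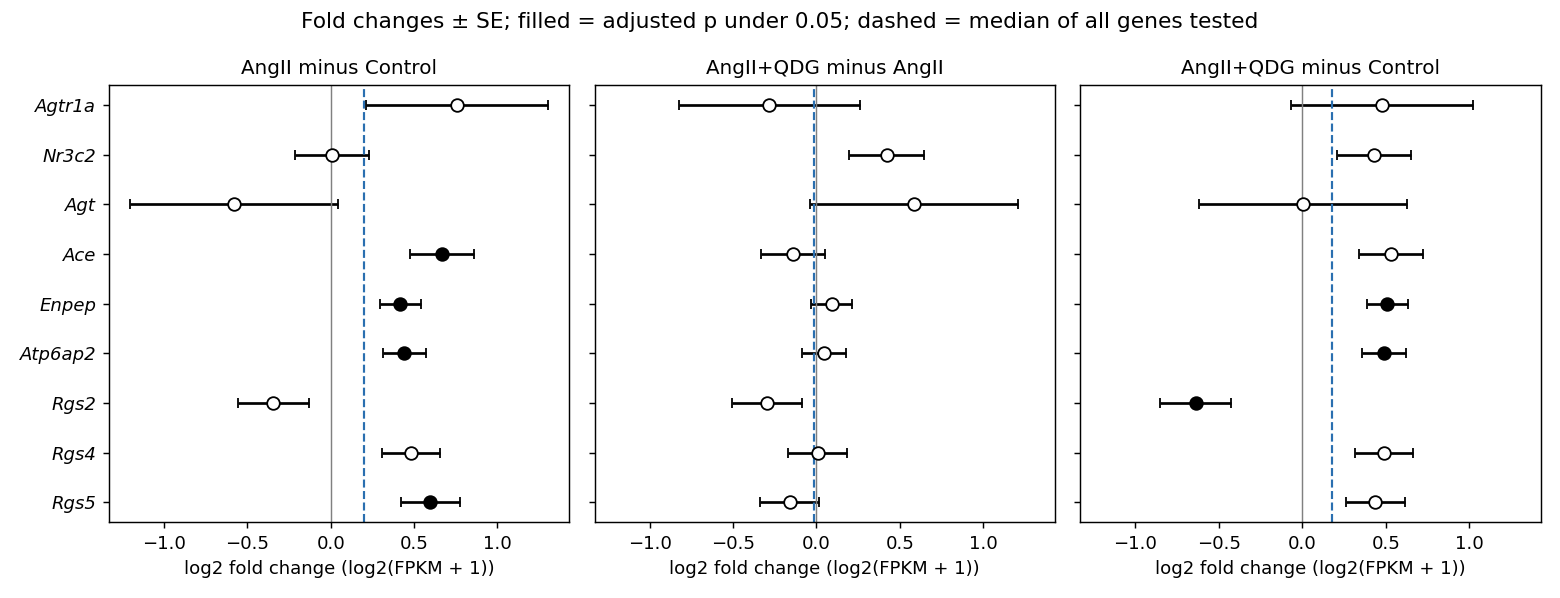
Log2 fold changes on log2(FPKM + 1) with their SE for the 9 members tested (rows), in the 3 comparisons (panels). Filled points passed an adjusted p of 0.05 and the dashed line is the median of all genes tested. Ace, Enpep, Atp6ap2 and Rgs5 are filled for AngII minus Control, none for AngII+QDG minus AngII, and Enpep, Atp6ap2 and Rgs2 for AngII+QDG minus Control.

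Agtr1a encodes the type 1 angiotensin II receptor (ENSMUSG00000049115, chromosome 13 from 30336441 to 30382867, plus strand, GRCm38). It had 3.38, 13.4, 13.9, 8.56 and 10.1 FPKM in AngII+QDG hearts, 9.44, 12.3, 12.03, 11.9 and 10.4 FPKM in AngII hearts, and 10.2, 10.1, 9.58, 11.4 and 0.176 FPKM in Control hearts. The groups overlapped, and Control 5 and AngII+QDG 1 stood below all other libraries. In Control 5 its main transcript rested on 3 fragments, against 1135 to 1962 in AngII libraries. Agtr1a changed by 0.76 ± 0.55 (SE) between AngII and Control (0.56 relative to all genes, limma adjusted p = 0.355) and by 0.10 without Control 5. It changed by −0.28 ± 0.55 between AngII+QDG and AngII (limma adjusted p = 0.998), and by 0.016 without AngII+QDG 1. Between AngII+QDG and Control the change was 0.48 (limma adjusted p = 0.572), and −0.18 without Control 5.

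Nearly all of the Agtr1a signal came from 1 transcript in most libraries. The 2199 nt transcript gave 90.6 to 100% of the gene's FPKM in every library except AngII+QDG 1 (58.55%) and Control 5 (10.6%). The rest came from the 436 nt transcript, on 5 fragments in Control 5 and 32 in AngII+QDG 1. Beside these 2 low readings, Gapdh, a glycolytic enzyme that every cell uses and that was picked after its values were seen, was listed at 0.349 to 73.4 FPKM in AngII+QDG, 0.895 to 136 FPKM in AngII and 0.917 to 180.4 FPKM in Control libraries. Assembled transcripts without a gene name took 7.7 to 10.7% of FPKM in each library, and reads of a member could lie among them. Their part in low readings was not tested.

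Nr3c2, the mineralocorticoid receptor, is a nuclear receptor bound by aldosterone and by glucocorticoids (ENSMUSG00000031618, chromosome 8 from 76899442 to 77245012, plus strand). It had 1.87, 2.38, 2.37, 2.59 and 2.77 FPKM in AngII+QDG hearts, 1.33, 3.03, 2.04, 0.315 and 1.74 FPKM in AngII hearts, and 1.47, 1.36, 1.48, 2.01 and 1.30 FPKM in Control hearts. AngII hearts spanned the range of both other groups, and the AngII+QDG and Control groups overlapped through Control 4. The change was 0.0084 ± 0.22 (SE) for AngII minus Control (−0.19 relative to all genes, limma adjusted p = 0.983) and 0.42 ± 0.22 for AngII+QDG minus AngII (limma adjusted p = 0.998). For AngII+QDG minus Control it was 0.43 ± 0.22 (0.25 relative to all genes, limma adjusted p = 0.191).

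The listed transcripts of Nr3c2 replaced each other between libraries. The transcript of 5675 nt starts at base 76902288 and that of 5916 nt at base 76899772, so their annotated starts differ. The 5675 nt transcript gave 98.3 to 100% of the gene's FPKM in all 5 AngII+QDG libraries. In AngII it gave 0, 99.07, 0, 78.25 and 95.65%, and in Control 100, 0, 0, 0 and 0%. Every library but AngII 4 thus held nearly all of its signal in 1 of the pair. AngII 4, with the lowest sum, had 107 fragments of the 5675 nt and 31 of the 5916 nt transcript. Reads of the shared exons can be assigned to either transcript, so the sum over the pair was used for all tests. The AngII+QDG files also list another set of transcripts than the Control and AngII files (31734 against 31685). In these shares the AngII+QDG group and its transcript set cannot be told apart.

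**Figure D3:**
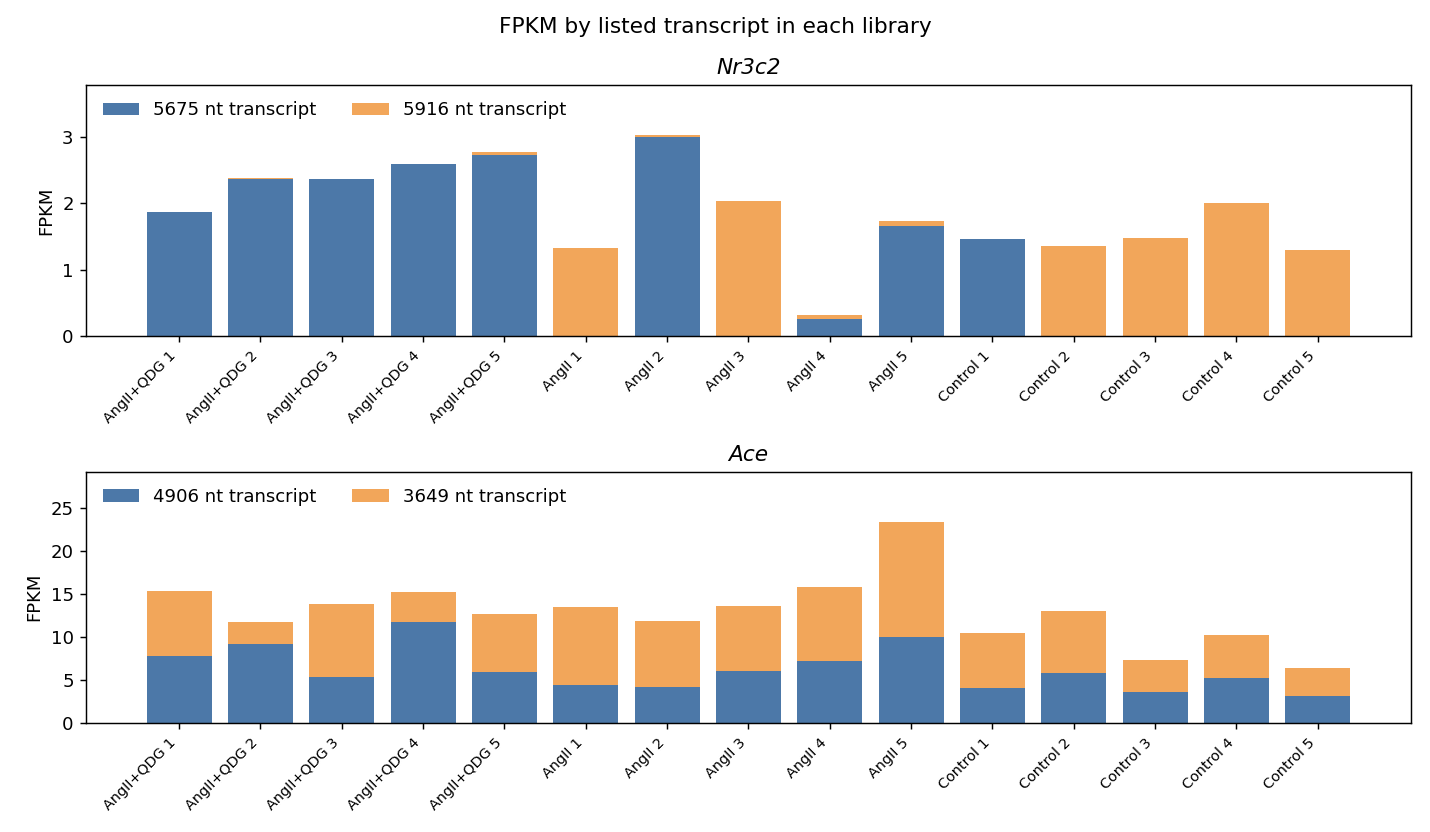
FPKM (vertical axis) of the listed transcripts of Nr3c2 and Ace, stacked, in each library, groups from left to right AngII+QDG, AngII and Control. The 5675 nt transcript of Nr3c2 fills all AngII+QDG libraries, the 5916 nt one fills 4 of 5 Control libraries, and the 3649 nt transcript of Ace takes a small share in AngII+QDG 2 and AngII+QDG 4. The AngII+QDG files list another set of transcripts than the other files.

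Agt, the precursor of all angiotensin peptides, is secreted mainly by the liver and at lower levels by other tissues (ENSMUSG00000031980, chromosome 8 from 124556534 to 124569706, minus strand). It was listed at 3.94, 3.17, 0, 0 and 2.63 FPKM in AngII+QDG hearts, at 3.12, 0, 1.204, 0 and 0.088 FPKM in AngII hearts, and at 4.64, 0, 3.35, 0 and 2.004 FPKM in Control hearts. Each group had 2 libraries at 0, and the other libraries held 13 to 576 fragments of its single listed transcript. The log2 change was −0.58 ± 0.62 (SE) for AngII minus Control (limma adjusted p = 0.549), 0.58 ± 0.62 for AngII+QDG minus AngII (limma adjusted p = 0.998) and 0.0043 ± 0.62 for AngII+QDG minus Control (limma adjusted p = 0.997). The values did not separate any pair of groups.

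Ace, which cuts angiotensin I to angiotensin II and is anchored on endothelial cells (ENSMUSG00000020681, chromosome 11 from 105967945 to 105989964, plus strand), was higher in AngII than in Control hearts. It had 15.4, 11.8, 13.8, 15.2 and 12.7 FPKM in AngII+QDG hearts, 13.4, 11.9, 13.7, 15.8 and 23.4 FPKM in AngII hearts, and 10.4, 13.03, 7.30, 10.3 and 6.37 FPKM in Control hearts. AngII and Control overlapped through AngII 2 and Control 2, and AngII 5 was the highest of all libraries. The mean was 15.6 ± 4.57 FPKM in AngII and 9.47 ± 2.67 FPKM in Control (SD, n = 5 each), a ratio of 1.65 and a log2 change of 0.67 ± 0.19 (SE, 0.47 relative to all genes, limma adjusted p = 0.0373). The limma call ended without any 1 of AngII replicates 1, 2, 4 and 5, and Control replicates 3 and 5 (adjusted p from 0.0544 to 0.0839). AngII+QDG minus AngII was −0.14 ± 0.19 (limma adjusted p = 0.998). AngII+QDG minus Control was 0.53 ± 0.19 (limma adjusted p = 0.0664), with adjusted p = 0.0368 without Control 2 and 0.0392 without AngII 5.

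Both listed Ace transcripts contributed. The 4906 nt transcript spans the whole gene, while the 3649 nt one starts at base 105971323, inside it. The 4906 nt transcript gave 38.9 to 77.5% of the gene's FPKM in AngII+QDG, 33.0 to 45.7% in AngII and 39.1 to 50.1% in Control libraries. The shares of 77.46 and 77.01% in AngII+QDG 2 and AngII+QDG 4 lay outside the range of every other library. For Ace too, the AngII+QDG group and its other set of listed transcripts cannot be told apart in the shares. All 8 endothelial markers were listed, of which limma called 0 between AngII and Control, with a median change of 0.23. Of all genes 13.4% were called there, with a median change of 0.20. The summed FPKM of the endothelial markers was 170.8 to 224.9 in AngII+QDG, 182.3 to 245.3 in AngII and 146.7 to 254.5 in Control libraries. In AngII+QDG against Control, 2 of the 8 were called higher, as were 16.1% of all genes. The part of endothelial cells in the Ace difference was not tested.

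Enpep, the aminopeptidase A that trims angiotensin II to angiotensin III and is found on pericytes and kidney epithelium (ENSMUSG00000028024, chromosome 3 from 129269175 to 129332720, minus strand), was higher in both infused groups than in Control. It had 2.18, 1.5003, 2.49, 1.99 and 2.25 FPKM in AngII+QDG hearts, 2.07, 1.93, 1.68, 1.65 and 2.07 FPKM in AngII hearts, and 1.18, 1.08, 1.36, 1.46 and 0.752 FPKM in Control hearts. Every infused heart stood above every Control heart. Between AngII and Control, 3 of 9 members (Enpep, Atp6ap2 and Rgs5) were higher without overlap, as were 10.2% of all genes, and none was lower without overlap (1% of all genes). Between AngII+QDG and Control this held for 1 member, Enpep, and for 12.8% of all genes, with no member lower without overlap (1.72% of all genes). Between AngII+QDG and AngII no member was free of overlap (0.596% of all genes higher and 0.8% lower). Enpep averaged 2.08 ± 0.372 FPKM in AngII+QDG, 1.88 ± 0.204 FPKM in AngII and 1.17 ± 0.276 FPKM in Control (SD, n = 5 each). The log2 change was 0.42 ± 0.12 (SE) for AngII minus Control (0.22 relative to all genes, limma adjusted p = 0.0403) and 0.51 ± 0.12 for AngII+QDG minus Control (0.33 relative to all genes, limma adjusted p = 0.0125). The second call held without each of the 15 libraries. The first ended without any 1 of AngII+QDG replicates 4 and 5, AngII replicates 1, 2, 4 and 5, and Control replicates 1, 2, 3 and 5 (limma adjusted p from 0.0505 to 0.0864). With quantile normalization the change fell to 0.16 for AngII minus Control and 0.24 for AngII+QDG minus Control, and neither was called. AngII+QDG minus AngII was 0.092 ± 0.12 (limma adjusted p = 0.998).

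Lnpep, the insulin-regulated aminopeptidase that binds angiotensin IV (ENSMUSG00000023845, chromosome 17 from 17521410 to 17625050, minus strand), was listed in the AngII+QDG files only. Its 12052 nt transcript had 0.988, 0.232, 0.400, 0.587 and 0.617 FPKM there, on 214 to 623 fragments. No comparison was made for it, since the files of the other groups hold another set of transcripts and what they would show for Lnpep was not analysed here.

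Atp6ap2, the prorenin receptor and an accessory protein of the vacuolar proton pump (ENSMUSG00000031007, chromosome X from 12587801 to 12617049, plus strand), was higher in both infused groups. It had 6.47, 4.99, 4.73, 6.65 and 6.84 FPKM in AngII+QDG hearts, 4.87, 6.08, 5.20, 5.57 and 6.72 FPKM in AngII hearts, and 3.49, 3.94, 4.86, 3.91 and 3.42 FPKM in Control hearts. The lowest AngII heart (4.866) lay just above the highest Control heart (4.864), and AngII+QDG 3 lay below that Control heart. The log2 change was 0.44 ± 0.13 (SE) for AngII minus Control (0.24 relative to all genes, limma adjusted p = 0.0403) and 0.49 ± 0.13 for AngII+QDG minus Control (0.31 relative to all genes, limma adjusted p = 0.0192). The first call ended without any 1 of AngII replicates 1, 2, 4 and 5, and Control replicates 1, 2 and 5 (limma adjusted p from 0.0511 to 0.0935), and the second without AngII+QDG 1 or AngII+QDG 5 (limma adjusted p = 0.0506 and 0.0504). With quantile normalization the changes were 0.185 and 0.242, and neither was called. AngII+QDG minus AngII was 0.047 ± 0.13 (limma adjusted p = 0.998).

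Other subunits of that proton pump were counted beside it. Of 15 tested, limma called 1 higher and 0 lower between AngII and Control (median 0.070, against 0.20 for all genes), 0 between AngII+QDG and AngII, and 1 higher and 1 lower between AngII+QDG and Control (median 0.035). The shares of all genes called higher and lower were 11.9 and 1.48% for AngII minus Control, and 16.1 and 3.32% for AngII+QDG minus Control. Atp6ap1, the other accessory protein, was 0.53 ± 0.17 (SE) higher in AngII than in Control (limma adjusted p = 0.0496). That call ended without any 1 of AngII+QDG replicates 1, 2, 3 and 4, AngII replicates 2, 3, 4 and 5, and Control replicates 1, 2, 3 and 5 (limma adjusted p from 0.0508 to 0.115). Atp6v1a, the catalytic subunit, was 0.62 ± 0.17 higher in AngII+QDG than in Control (limma adjusted p = 0.0215, and 0.0563 without AngII+QDG 1). Atp6v0e, a membrane subunit, changed by −0.36 ± 0.10 in the same comparison (limma adjusted p = 0.0227, and from 0.0521 to 0.0638 without any 1 of AngII+QDG replicate 1, and Control replicates 2 and 3). Without Control 3 and Control 5 together none of these 3 calls held (limma adjusted p = 0.129 for Atp6ap1, 0.104 for Atp6v1a and 0.0549 for Atp6v0e). With quantile normalization Atp6ap1 was 0.3485 and Atp6v1a 0.3493, and neither was called (limma adjusted p = 0.223 and 0.0882). The Atp6ap1 call ended also with the 2 groups alone, the replicate block and limma voom (limma adjusted p = 0.0856, 0.0766 and 0.230).

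The 3 Rgs members lie on chromosome 1. Rgs5 (ENSMUSG00000026678, from 169655501 to 169695813, plus strand) and Rgs4 (ENSMUSG00000038530, from 169741477 to 169747642, minus strand) are neighbours that point towards each other, with 45663 bases between their ends. Rgs2 (ENSMUSG00000026360, from 143999338 to 144004161, minus strand) lies elsewhere on the chromosome. The 250 bases before each start, from RefSeq on GRCm38.p6, are shown because Rgs4 and Rgs5, which are neighbours, had the highest correlation of any pair of members across libraries and Rgs2 did not follow them. The RefSeq start of Rgs2 differs from the gene start given above, so the last bases of its window, up to base 144004150, lie inside the gene's span, and its motif positions count from the RefSeq start. Each is printed 5′ to 3′ on the gene's own strand, with the motifs searched in capitals.
Rgs5, chr1:169655251-169655500, plus strand: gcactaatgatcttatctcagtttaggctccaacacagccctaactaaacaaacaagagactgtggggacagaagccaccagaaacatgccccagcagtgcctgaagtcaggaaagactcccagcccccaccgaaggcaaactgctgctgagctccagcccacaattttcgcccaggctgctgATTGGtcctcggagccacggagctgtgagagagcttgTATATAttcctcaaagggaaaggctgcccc
Rgs4, chr1:169747643-169747892, minus strand: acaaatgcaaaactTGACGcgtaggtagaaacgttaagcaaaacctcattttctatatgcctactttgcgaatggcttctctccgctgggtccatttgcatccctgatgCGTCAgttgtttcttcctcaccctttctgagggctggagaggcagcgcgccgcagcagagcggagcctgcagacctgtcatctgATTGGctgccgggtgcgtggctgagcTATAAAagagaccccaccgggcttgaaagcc
Rgs2, chr1:144004150-144004399, minus strand: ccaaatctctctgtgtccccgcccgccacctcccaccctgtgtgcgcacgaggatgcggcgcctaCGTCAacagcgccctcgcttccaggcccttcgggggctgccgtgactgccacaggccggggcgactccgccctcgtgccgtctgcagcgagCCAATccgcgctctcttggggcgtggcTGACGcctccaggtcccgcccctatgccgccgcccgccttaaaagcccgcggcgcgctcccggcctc
The first motif was CCAAT, the CCAAT box. The second, TGACG, is the core of the cyclic AMP response element. The third was TATAAA. The similar TATATA was counted with it as TATA-like. Each was searched on both strands. No capitals of different motifs overlap. A CCAAT box was present in all 3 windows, at −67 to −63 in Rgs5, −57 to −53 in Rgs4 and −94 to −90 in Rgs2, and in 33.8% of 32536 promoter windows of this length. TATA-like letters lay at −30 to −25 in Rgs5 and −31 to −26 in Rgs4, and in 15.3% of all windows. TGACG occurred 2 times in Rgs4 and 2 times in Rgs2, and in 17.9% of all windows. Other members held these motifs too: TATA-like letters in Agt, Ace and Enpep, a CCAAT box in Nr3c2, Ace, Enpep and Atp6ap2, and TGACG in Atp6ap2. All these matches describe letters and not binding sites.

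Rgs5, a regulator of Gq and Gi signalling that marks pericytes and arterial smooth muscle, was higher in AngII than in Control hearts. It had 141.7, 96.2, 110.9, 159.5 and 127.4 FPKM in AngII+QDG hearts, 130.5, 129.2, 123.8, 139.1 and 184.3 FPKM in AngII hearts, and 81.8, 113.6, 102.6, 110.5 and 63.1 FPKM in Control hearts. All AngII hearts stood above all Control hearts, AngII 5 was the highest, and AngII+QDG hearts overlapped both groups. The mean was 141.4 ± 24.6 FPKM in AngII and 94.3 ± 21.4 FPKM in Control (SD, n = 5 each), a ratio of 1.499 and a log2 change of 0.60 ± 0.18 (SE, 0.40 relative to all genes, limma adjusted p = 0.0407). The call ended without any 1 of AngII+QDG replicate 5, AngII replicates 1, 2, 4 and 5, and Control replicates 1, 3 and 5 (limma adjusted p from 0.0521 to 0.0961). AngII+QDG minus AngII was −0.16 ± 0.18 (limma adjusted p = 0.998). AngII+QDG minus Control was 0.44 ± 0.18 (0.26 relative to all genes, limma adjusted p = 0.0956, and 0.0422 with quantile normalization).

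Rgs4, which acts on Gq and Gi and is known from heart muscle, vessels and brain, had a similar profile at a lower level. It had 5.55, 3.91, 4.38, 5.73 and 4.38 FPKM in AngII+QDG hearts, 4.67, 4.41, 4.48, 3.66 and 6.81 FPKM in AngII hearts, and 2.76, 3.23, 3.79, 4.20 and 1.90 FPKM in Control hearts. The infused groups overlapped Control only below 4.20 FPKM, through AngII 4 and AngII+QDG 2. The log2 change was 0.48 ± 0.18 (SE) for AngII minus Control (0.28 relative to all genes, limma adjusted p = 0.0792) and 0.49 ± 0.18 for AngII+QDG minus Control (0.31 relative to all genes, limma adjusted p = 0.0635). Without Control 4 both were called (limma adjusted p = 0.0394 and 0.0315), and the second also without AngII 5 (limma adjusted p = 0.0472). AngII+QDG minus AngII was 0.0073 ± 0.18 (limma adjusted p = 0.998).

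Rgs4 and Rgs5 varied together from heart to heart. Over the 15 libraries Pearson's r of their log2 values was 0.917, and 0.876 after each group's mean was taken off. These points share the library and its balance of short against long transcripts, with which r was −0.71 for Rgs4 and −0.70 for Rgs5. Ace, Atp6ap2 and Enpep followed them too, and their r with that balance was −0.77, −0.71 and −0.82. Nr3c2, whose listed transcripts have 5675 and 5916 nt, gave r = 0.123 with Rgs5 and 0.38 with Rgs4. Its r with the balance was −0.29. The part of the balance in these correlations was not tested. Rgs5 gave r = 0.869 with Ace, 0.833 with Atp6ap2 and 0.755 with Enpep, and 0.741, 0.722 and 0.577 with group means off. Rgs4 gave 0.836 with Enpep, 0.818 with Atp6ap2 and 0.788 with Ace, and 0.677, 0.619 and 0.607 with group means off. Rgs2 stood apart from both neighbours, with r = −0.12 to Rgs5 and −0.16 to Rgs4, and 0.39 and 0.41 with group means off. The genes most like Rgs5 over the 15 libraries were Cmtm6, Smad7 and Cdc42se2 (r = 0.953, 0.943 and 0.942), and those most like Rgs4 were Rsl1d1, Usp6nl and C2cd2 (0.959, 0.947 and 0.944). With group means off, Cmtm6, Atxn7l3b and Sparcl1 came nearest to Rgs5 (0.932, 0.916 and 0.915), and Rsl1d1, Mms19 and Usp6nl to Rgs4 (0.937, 0.912 and 0.912). For Agtr1a the nearest were Pomgnt2, B4gat1 and Rad51d (0.946, 0.935 and 0.932), or Kptn, Pomgnt2 and Rad51d with group means off (0.951, 0.945 and 0.945). Agtr1a had 0.176 FPKM in Control 5 and 3.38 FPKM in AngII+QDG 1, against 8.56 to 13.9 FPKM elsewhere. These low libraries weigh heavily in its r, which was not computed without them.

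Rgs2, which acts most strongly on Gq and is known in mice as a brake on angiotensin II pressor responses, was the member called lower. It had 8.62, 6.74, 5.05, 7.55 and 5.19 FPKM in AngII+QDG hearts, 5.84, 12.1, 9.99, 6.83 and 7.65 FPKM in AngII hearts, and 9.03, 13.2, 15.001, 10.1 and 7.65 FPKM in Control hearts. AngII+QDG hearts overlapped Control only through AngII+QDG 1 against Control 5, while AngII hearts lay across both groups. The mean was 6.63 ± 1.53 FPKM in AngII+QDG, 8.48 ± 2.55 FPKM in AngII and 10.996 ± 3.03 FPKM in Control (SD, n = 5 each). AngII+QDG minus Control was −0.64 ± 0.21 (SE, −0.82 relative to all genes, limma adjusted p = 0.04615). This call ended without any 1 of AngII+QDG replicates 2, 3, 4 and 5, AngII replicates 3, 4 and 5, and Control replicates 2, 3 and 4 (limma adjusted p from 0.0519 to 0.113), with the change between −0.69 and −0.53. AngII minus Control was −0.34 ± 0.21 (−0.54 relative to all genes, limma adjusted p = 0.280) and AngII+QDG minus AngII −0.30 ± 0.21 (limma adjusted p = 0.998). Rgs2 ran with the short-transcript balance, at r = 0.497 over the 15 libraries, and its change was −0.65 with that balance as a covariate (limma adjusted p = 0.694). The genes most like it were Sin3b, Lgals1-ps2 and Hivep3 (r = 0.861, 0.850 and 0.831), and with group means off Lgals1-ps2, Nr0b2 and Thbs2 (0.855, 0.820 and 0.816).

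Markers of pericytes, the cells that Rgs5 is used to mark, did not move as 1 group. All 11 were listed. Between AngII and Control, where 11.9% of all genes were called higher and 1.48% lower, limma called 3 higher and 0 lower (median 0.26, against 0.20 for all genes). These were Mcam, an adhesion molecule (0.87 ± 0.25 SE, limma adjusted p = 0.039), Notch3, a receptor of mural cells (0.71 ± 0.22, limma adjusted p = 0.0488), and Steap4, a metalloreductase (0.57 ± 0.15, limma adjusted p = 0.0269). In AngII+QDG against Control, Steap4 was called higher, and Ndufa4l2 (−0.52 ± 0.15, limma adjusted p = 0.0238) and Vtn, vitronectin (−0.57 ± 0.17, limma adjusted p = 0.0304), were called lower. Of all genes, 16.1% were called higher and 3.32% lower there. The defining receptor Pdgfrb changed by 0.54 ± 0.49 between AngII and Control (limma adjusted p = 0.468). It ranged from 0 to 6.38 FPKM in Control and from 1.915 to 4.12 FPKM in AngII hearts. Kcnj8, a potassium channel subunit of these cells, changed by −0.35 ± 0.25 between AngII and Control (limma adjusted p = 0.361). The summed FPKM of the 11 markers was 85.3 to 131.5 in AngII+QDG, 100.9 to 161.6 in AngII and 112.2 to 160.9 in Control libraries, with medians of 112.4, 132.2 and 133.5. The part of pericytes in the Rgs5 difference was not tested. Of 8 smooth muscle markers, 1 was called higher in each comparison with Control, as were 11.9% of all genes for AngII and 16.1% for AngII+QDG. It was Mylk, the myosin light chain kinase (0.62 ± 0.16 for AngII and 0.69 ± 0.16 for AngII+QDG, limma adjusted p = 0.0283 and 0.0106). The sums of the smooth muscle markers were 140.0 to 187.1 in AngII+QDG, 154.2 to 218.8 in AngII and 99.9 to 183.3 in Control libraries.

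**Figure D4:**
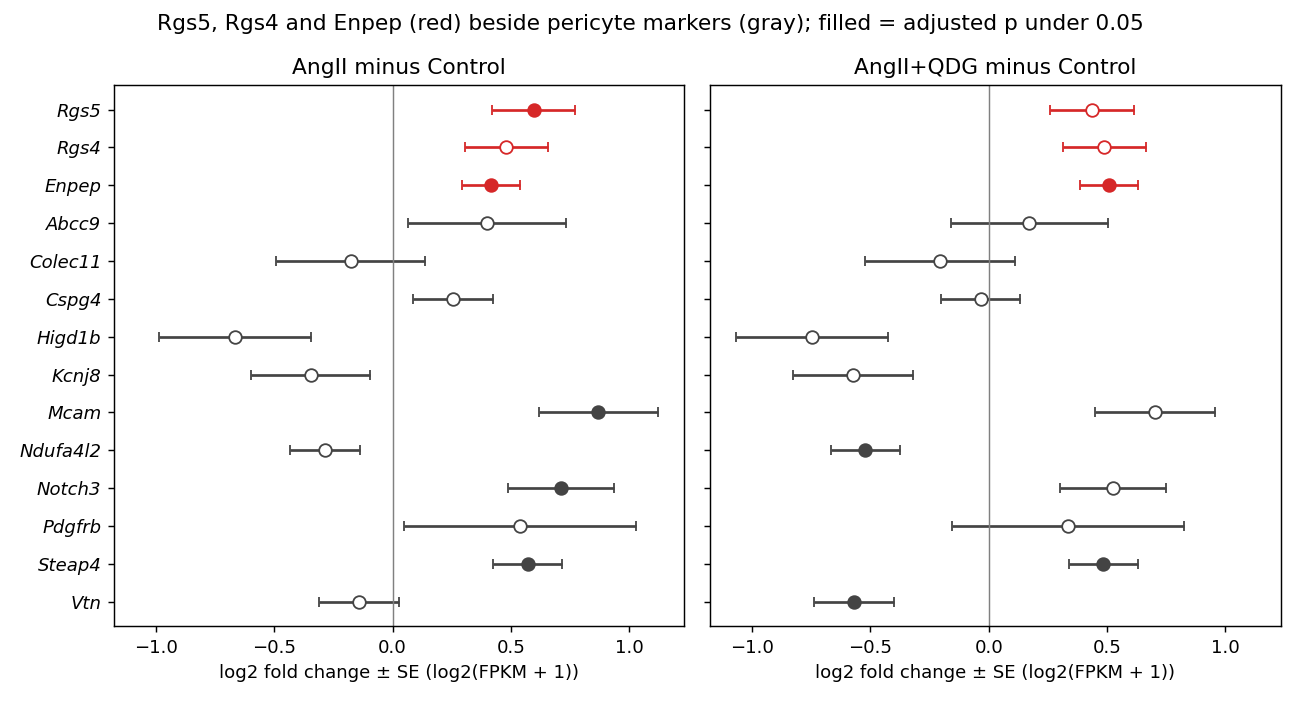
Log2 fold changes with SE (horizontal axis) of Rgs5, Rgs4 and Enpep (red) and of 11 pericyte markers (gray), for AngII minus Control and AngII+QDG minus Control. Filled points passed an adjusted p of 0.05. Mcam, Notch3 and Steap4 moved up with Rgs5 in AngII, while Colec11, Higd1b, Kcnj8, Ndufa4l2 and Vtn had values below 0 in both panels.

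The labelled tissue was checked with the other marker lists. All 8 cardiomyocyte markers were listed, with a summed FPKM of 21090 to 37320 in AngII+QDG, 28440 to 32030 in AngII and 27010 to 35790 in Control libraries, and 1 of the 8 was called, higher in AngII than in Control. All 8 fibroblast and all 8 macrophage markers were listed, with 1 of each called higher between AngII and Control, and 2 of each between AngII+QDG and Control. Of the other lists, none held a call between AngII and Control, and 1 of 5 blood genes was lower in AngII+QDG than in Control. Beside these counts, 11.9% of all genes were called higher and 1.48% lower in AngII, and 16.1 and 3.32% in AngII+QDG, against Control. Only 2 of 4 atrial, 2 of 7 adipocyte and 3 of 4 mesothelial markers were listed.

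Among other genes of the angiotensin and aldosterone pathway the calls were Nln, Prcp and Mcpt4. Of 23 on the list 14 were listed and tested, and Agtr1b, Agtr2, Mas1, Ren1, Mme, Ctsg, Hsd11b2, Cyp11b1 and Cyp11b2 were not used here. Limma called 3 higher and 0 lower between AngII and Control (median 0.059, against 0.20 for all genes), 0 between AngII+QDG and AngII, and 1 higher and 0 lower between AngII+QDG and Control. Of all genes, 11.9% were called higher and 1.48% lower in the first of these comparisons, and 16.1 and 3.32% in the last. Nln, neurolysin, a peptidase that cuts angiotensin I, had 2.23 to 2.83 FPKM in AngII and 1.30 to 2.32 FPKM in Control hearts (0.45 ± 0.12 SE, limma adjusted p = 0.0301). That call ended without any 1 of AngII replicates 1, 2, 4 and 5, and Control replicates 1, 2, 3 and 5 (limma adjusted p from 0.0521 to 0.0721). Nln was also higher in AngII+QDG than in Control (0.56 ± 0.12, limma adjusted p = 0.00805), a call held without each of the 15 libraries. With quantile normalization its change was 0.1795 for AngII and 0.2734 for AngII+QDG against Control, and neither was called (limma adjusted p = 0.304 and 0.0928). Prcp, which trims the last residue of angiotensin II, and Mcpt4, a mast cell chymase, were higher in AngII than in Control by 0.58 ± 0.18 and 0.41 ± 0.13 (limma adjusted p = 0.045 and 0.0465). The Prcp call held only without Control 1, Control 4 or AngII 3, and ended without any 1 of the other 12 libraries (limma adjusted p from 0.0525 to 0.0992). The Mcpt4 call held only without Control 4, AngII 1, AngII+QDG 2 or AngII+QDG 4, and ended without any 1 of the other 11 (limma adjusted p from 0.0518 to 0.1065). With quantile normalization Prcp was 0.317 and Mcpt4 0.1451, without Control 3 and Control 5 they were 0.3873 and 0.3592, and neither was called under these settings (limma adjusted p from 0.126 to 0.453). The Nln call in AngII also ended without Control 3 and Control 5 (limma adjusted p = 0.122). With the 2 groups alone or the replicate block, Nln, Prcp and Mcpt4 were not called between AngII and Control (limma adjusted p from 0.0723 to 0.101).

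Of 23 other Rgs family genes and relatives 9 were listed and 8 tested. Limma called 0 of them between AngII and Control, where 13.4% of all genes were called (median 0.24, against 0.20 for all genes). Between AngII+QDG and AngII it called 0. Between AngII+QDG and Control, where 16.1% of all genes were called higher, 1 was higher, Rgs7bp, which anchors Rgs proteins of the R7 class at membranes. It had 0.453 to 0.972 FPKM in AngII+QDG and 0.262 to 0.510 FPKM in Control hearts (0.37 ± 0.10 SE, limma adjusted p = 0.0205, and 0.052 without AngII+QDG 5). It was 0.1414 with quantile normalization (limma adjusted p = 0.373). The call also ended without Control 3 and Control 5 and with the 2 groups alone (limma adjusted p = 0.078 and 0.0525).

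Genes that act between the type 1 receptor and its effectors held calls in both comparisons with Control. Of 39 genes of Gq and G12 signalling tested, 11 rose and 0 fell between AngII and Control, where 11.9% of all genes were called higher and 1.48% lower (median 0.425, against 0.20 for all genes), 0 were called between AngII+QDG and AngII, and 13 rose and 1 fell between AngII+QDG and Control, where 16.1% of all genes were called higher and 3.32% lower (median 0.39, against 0.18). After quantile normalization all genes split almost evenly, into 405 higher and 414 lower for AngII minus Control, and this list was not counted again. Gnai3, an alpha subunit of the Gi class that Rgs4 and Rgs5 act on, had 4.70 to 7.325 FPKM in AngII+QDG, 4.70 to 7.41 FPKM in AngII and 2.35 to 3.18 FPKM in Control hearts. Its change was 0.83 ± 0.15 (SE) for AngII and 0.89 ± 0.15 for AngII+QDG against Control (limma adjusted p = 0.00965 and 0.002805). Gnaq, the Gq alpha subunit itself, had 3.16 to 4.65 FPKM in AngII+QDG, 2.83 to 4.44 FPKM in AngII and 1.60 to 2.525 FPKM in Control hearts. It rose by 0.57 ± 0.14 in AngII and 0.69 ± 0.14 in AngII+QDG against Control (limma adjusted p = 0.0222 and 0.00556), the first call ending without AngII 2 or AngII 5 (limma adjusted p = 0.0540 to 0.0592). It ended also without Control 3 and Control 5 (0.4755, limma adjusted p = 0.0987), with quantile normalization (0.3013, limma adjusted p = 0.0964), with the 2 groups alone and with the replicate block (limma adjusted p = 0.0558 and 0.0535).

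Arrb1, the adaptor beta-arrestin 1 that takes active receptors from the membrane, had 0.465 to 3.08 FPKM in AngII and 0 to 0.025 FPKM in Control hearts (1.33 ± 0.28 SE, limma adjusted p = 0.0157). Camk2d, the main calcium and calmodulin-dependent kinase of heart muscle, had 3.92 to 15.7 FPKM in AngII and 0.908 to 4.41 FPKM in Control hearts (1.45 ± 0.35, limma adjusted p = 0.0231, and 0.0569 to 0.0620 without AngII 2 or AngII 5). Itpr1, a calcium release channel opened by inositol trisphosphate, and Ppp3r1, the regulatory subunit of calcineurin, were higher in AngII+QDG than in Control by 1.03 ± 0.20 and 0.62 ± 0.13 (limma adjusted p = 0.00523 and 0.00672). The Itpr1 call ended with limma voom (0.9485, limma adjusted p = 0.227). Without Control 3 and Control 5, the adjusted p in limma for AngII minus Control was 0.0506 for Gnai3, 0.0654 for Arrb1 and 0.0744 for Camk2d. The Camk2d call ended also with the 2 groups alone and with the replicate block (limma adjusted p = 0.0620 and 0.0560).

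Targets of the mineralocorticoid and glucocorticoid receptors held calls in both comparisons with Control. Of 18 genes, 5 rose and 0 fell between AngII and Control (11.9 and 1.48% of all genes, median 0.51 against 0.20), 0 were called between AngII+QDG and AngII, and 6 rose and 1 fell between AngII+QDG and Control (16.1 and 3.32% of all genes, median 0.25 against 0.18). Sesn1, a stress-induced inhibitor of TORC1 signalling, rose by 0.61 ± 0.14 in AngII and by 1.03 ± 0.14 in AngII+QDG against Control (limma adjusted p = 0.0195, 0.0538 without AngII 2, and 0.00138). The first of these calls ended also with quantile normalization, with the 2 groups alone and without Control 3 and Control 5 (limma adjusted p = 0.0517, 0.05156 and 0.0598).

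Pdk4, a kinase that shuts pyruvate dehydrogenase, rose by 1.17 ± 0.29 (SE) in AngII against Control (limma adjusted p = 0.0262, and from 0.05155 to 0.0632 without any 1 of AngII replicates 2, 4 and 5, and Control replicate 5) and by 1.345 ± 0.29 in AngII+QDG against Control (limma adjusted p = 0.00821). Fkbp5, a co-chaperone of steroid receptors, had 8.34 to 13.5 FPKM in AngII and 0 to 6.46 FPKM in Control hearts (1.54 ± 0.42, limma adjusted p = 0.0318, and from 0.0604 to 0.0711 without any 1 of AngII replicates 2, 4 and 5). Without Control 5, the library with the most zeros, the Fkbp5 change was 1.027 and was still called (limma adjusted p = 0.0185). Its call ended with a pseudocount of 0.1, quantile normalization, limma voom, the 2 groups alone and the replicate block (limma adjusted p = 0.0941, 0.0564, 0.121, 0.0775 and 0.05176). The Pdk4 call in AngII ended without Control 3 and Control 5 (0.8992, limma adjusted p = 0.124), with the 2 groups alone and with the block (limma adjusted p = 0.0563 and 0.05176). Klf9, a transcription factor induced by both receptors, had 1.07 to 28.3 FPKM in AngII+QDG and 0 to 0.532 FPKM in Control hearts (3.48 ± 0.80, limma adjusted p = 0.01). This call ended without Control 3 and Control 5 (3.358, limma adjusted p = 0.053) and with limma voom (6.504, limma adjusted p = 0.0668). The same 18 genes respond to other signals too, and which receptor acts on them was not tested.

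The member calls against Control were few enough to follow under each setting. Without Control 3 and Control 5 none of the 4 calls between AngII and Control held in limma (Ace 0.41, Enpep 0.36, Atp6ap2 0.48 and Rgs5 0.47, adjusted p = 0.210, 0.127, 0.0794 and 0.1545), while Enpep and Atp6ap2 were still called between AngII+QDG and Control. With the 2 groups fitted alone, or with the replicate number as a block, none of the 4 was called between AngII and Control either. Rgs2 was then not called between AngII+QDG and Control. With the 2 groups alone Atp6ap2 was also not called between AngII+QDG and Control (limma adjusted p = 0.0519), while Enpep was. With each library's short-against-long balance as a covariate no member was called in any comparison, and limma called 0 genes in either comparison with Control (649 for AngII and 938 for AngII+QDG at an unadjusted p under 0.05), so the calls of the gene and marker lists end there too. The changes moved unequally under that covariate. For AngII minus Control, Arrb1 went from 1.33 to 1.163 and Atp6ap1 from 0.5259 to 0.5433. For AngII+QDG minus Control, Sesn1 went from 1.029 to 0.9428 and Pdk4 from 1.345 to 0.2703. The AngII minus Control change was then 0.22 ± 0.28 (SE) for Ace, 0.23 ± 0.19 for Enpep, 0.40 ± 0.21 for Atp6ap2 and 0.27 ± 0.27 for Rgs5. The balance differs between the groups, with no Control library below any AngII or AngII+QDG library. Its part in these changes and that of the infusion therefore cannot be told apart.

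**Figure D5:**
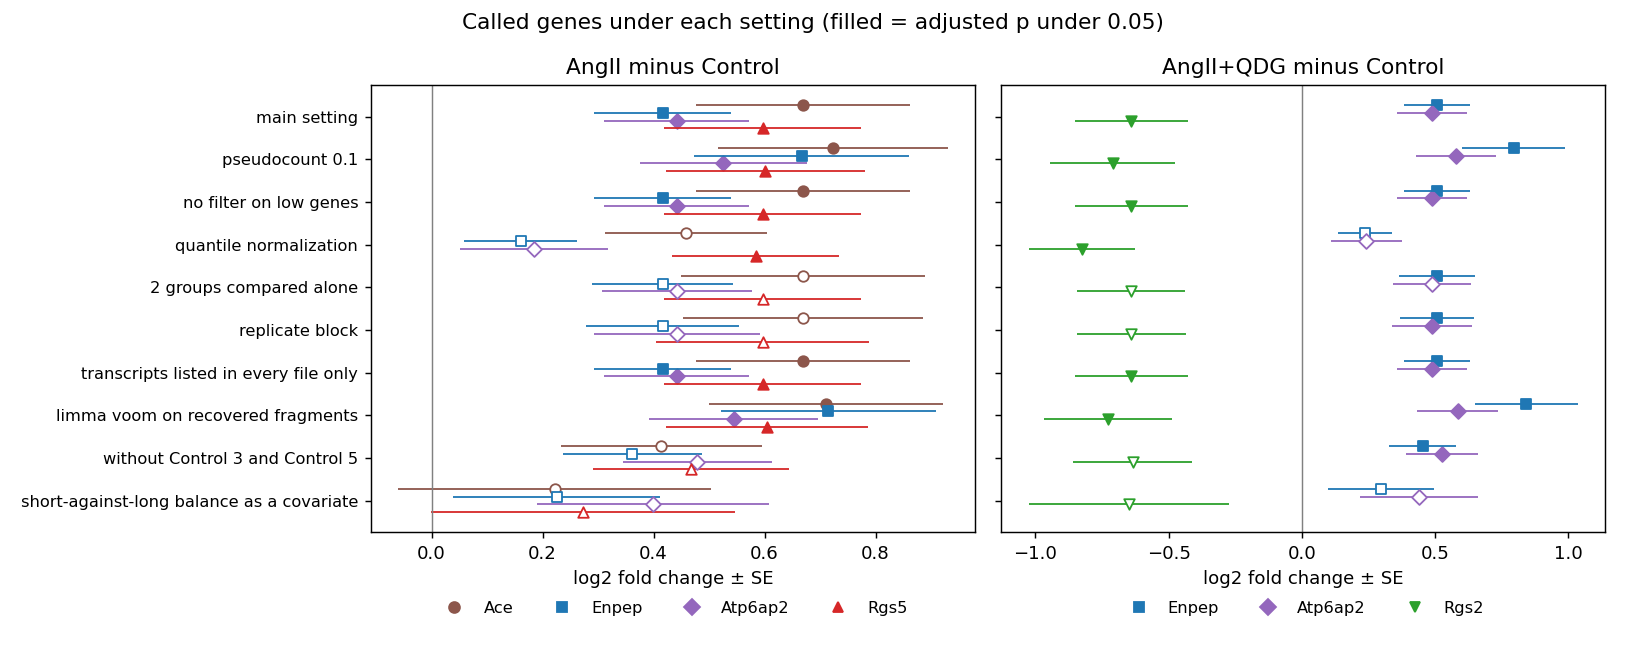
Log2 fold changes with SE (horizontal axis) of the called members under each setting (rows), for AngII minus Control and AngII+QDG minus Control. Filled points passed an adjusted p of 0.05. No point lies on the other side of 0 from its main value, Ace goes from 0.67 to 0.22 with the covariate, and Rgs2 stays between −0.82 and −0.63 in the rows shown.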

How the data were processed

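The deposited values were taken as FPKM per transcript, which the authors made per library. The labels give Trizol extraction, rRNA depletion and NEB libraries, and the submitters' processing notes name GRCm38 and limma. Which aligner and quantifier made them is not given in the sources used here. Their unit was read from the values: FPKM times transcript length fell within 0.1 of whole steps for 97.0 to 97.2% of values, against 20% by chance. Control and AngII files list 31685 transcripts and AngII+QDG files 31734, with 29996 in all of them.

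FPKM of named transcripts (GENCODE) was summed per gene, leaving out 19 symbols of several gene IDs. A gene was kept when 5 or more libraries held 0.5 FPKM or more. The test was limma (version 3.58.1, R version 4.3.3, with trend and robust variance) on log2(FPKM + 1), all 15 libraries in 1 fit, Benjamini-Hochberg adjusted. The fit was tested on simulated data. Named genes were all members and, per pathway list and comparison, up to 4 called genes with the smallest p, of which 1 is not reported here. Marker genes were named as examples. Alternatives covered pseudocount, filter, scaling, samples, replicate block, transcripts, limma voom, libraries left out and the length balance. The members and lists were chosen with earlier results of these data known. Promoters matched 9 of 10 members.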

Additional observations from a re-analysis of the deposited data

Results flagged for a closer look

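Of 28 groups of 5 libraries checked among the members, 3 had a library far from the others, where chance flags about 1 in 20. Agtr1a was lowest in Control 5 at 0.176 FPKM, with the next Control library at 9.58 FPKM, a gap of 0.836 of the group's range. Nr3c2 was highest in Control 4 at 2.007 FPKM, with the next at 1.48 FPKM, a gap of 0.742 of the range. Rgs5 was highest in AngII 5 at 184.3 FPKM, with the next at 139.1 FPKM, a gap of 0.748 of the range. The limit for groups of 5 is 0.71.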

How the results depend on the processing

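Genes called between AngII and Control numbered 1637, against 819 after quantile normalization, 317 with those 2 groups alone, 516 with the replicate block, 97 without Control 3 and Control 5, 0 with the length balance as a covariate, and 303 to 2487 with 1 library left out. The largest moves came without AngII replicates 1 (876), 2 (303), 4 (474) or 5 (509) or Control replicates 2 (982), 3 (706), 4 (2487) or 5 (794). Between AngII+QDG and AngII the count was 0, against 1 with a pseudocount of 0.1, 1 with limma voom, 1 with the covariate, and 0 to 1 with 1 library left out. Between AngII+QDG and Control it was 2376, against 1444 with the groups alone, 1202 without Control 3 and Control 5, 0 with the covariate, and 1453 (without AngII+QDG 1) to 3021 with 1 library left out. With 0 calls under the covariate, 4 members called between AngII and Control and 3 between AngII+QDG and Control were lost. The causes were not tested.

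The replicate numbers showed no sign of pairing: 15 same-numbered pairs gave r from −0.111 to 0.0835. In 1 of these 15 pairs the library of the first-named group correlated best with its own number in the other group. Weak correlation does not show that the mice were unpaired. With the replicate block, 516 genes were called between AngII and Control, 0 between AngII+QDG and AngII and 1860 between AngII+QDG and Control, and the members called were 0, 0 and 2 (Atp6ap2 and Enpep).

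No called member changed direction under any setting run. Among uncalled ones, Nr3c2 in AngII minus Control went to −0.11 with a pseudocount of 0.1, −0.27 with quantile normalization, −0.20 with limma voom, −0.040 without Control 3 and Control 5, −0.067 with the covariate, and −0.16 to 0.24 with 1 library left out. In AngII+QDG minus AngII, Rgs4 went to −0.0074 with limma voom, −0.020 with the covariate and −0.066 to 0.12 with 1 library left out, where Agtr1a ranged from −0.42 to 0.016, Ace from −0.22 to 0.0078 and Atp6ap2 from −0.00071 to 0.11. In AngII+QDG minus Control, Agtr1a went to −0.21 without Control 3 and Control 5, −0.18 with the covariate and −0.18 to 0.77 with 1 library left out, and Agt to −0.23 with quantile normalization and −0.31 to 0.32 with 1 library left out.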
